A study of Mus musculus with 7 samples.

Results

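Open chromatin was examined at 10 genes of radial glia and of CD15 synthesis, out of 21887 protein-coding genes, in sorted neural progenitors of the mouse embryo. The genes were listed by name: Vim, Nes, Fabp7, Slc1a3, Prom1, Hopx, Ptprz1 and Tnc as effectors of radial glia, and Fut4 and Fut9 as fucosyltransferase genes. Peaks were sought from 50 kb below to 50 kb above each gene, a stretch called the locus, and positions are those of the GRCm38 build. The assay was ATAC-seq, in which a transposase cuts open DNA and leaves sequencing adapters there. The cells were CD15-positive progenitors sorted by flow cytometry from the dorsal telencephalon of CD-1 embryos, given as E14.5 in the sample titles and as embryonic day 14 in another label. There were 4 libraries of L3mbtl3 -/- (L3mbtl3 KO) embryos and 3 libraries labelled wild-type, which the design text calls control. The growth protocol also mentions het cells, though no library carries that label, and the letter in the file name of wild-type library 3 skips a step, so the sample labels were followed. How the KO allele was made, and whether a library came from 1 embryo or from several, is not given in the sources used here, so the p-values measure the spread between libraries, which may be technical in part. The L3mbtl3 protein, which binds methylated lysines, interacts with Polycomb repressive complex PRC1, per the series title.

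Radial glia are the stem cells of the developing cortex. Their long processes run from the ventricle to the pial surface and are built on vimentin and nestin filaments, and they carry glial proteins such as the fatty acid binding protein of Fabp7 and the glutamate transporter of Slc1a3. CD15, also called Lewis x or SSEA-1, is a fucosylated sugar on the surface of neural stem and progenitor cells. The enzymes of Fut9 and Fut4 can add its fucose, and Fut9 is the main such enzyme in mouse brain.

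Each library was given by its own list of broad peaks, with 3366 to 17362 peaks in the L3mbtl3 KO lists and 6458 to 11394 in the wild-type lists. How deeply the libraries were sequenced is unknown, so a missing peak does not show closed chromatin. KO library 3 had the shortest list and the fewest peaks at the 10 loci, and KO library 4 the longest list and the most. L3mbtl3 itself had 0, 0, 0 and 1 peaks in its locus in KO libraries 1 to 4, and 1, 0 and 0 in wild-type libraries 1 to 3. Such lists cannot check the deletion. The cell type could not be checked on expression, and peaks at marker genes of other cells are given further on.

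All 10 loci held a peak in at least 1 library, against 69.2% of all protein-coding loci. A peak in all 7 libraries was found at 4 of the 10 (Vim, Fabp7, Hopx and Fut9), against 6.9% of all loci. The summed peaks over the 7 libraries had a median of 11.5 in the 10 loci, against 2 in all loci and 4 in the 15153 loci with any peak. The 10 genes have a median span of 52411 bp, against 17169 bp for all genes, so their windows are longer. Per length, the 10 loci held 8.27, 8.27, 3.54 and 12.99 peaks per Mb in KO libraries 1 to 4, and 7.08, 10.04 and 5.31 in wild-type libraries 1 to 3. All protein-coding loci held 3.70, 2.62, 1.37 and 7.40 peaks per Mb in the same KO libraries, and 2.93, 4.43 and 2.57 in the wild-type libraries. The ratio was above 1 in each library, between 1.76 and 3.15 in KO and between 2.07 and 2.42 in wild-type libraries. These ratios describe a list of genes chosen with earlier results known and carry no test.

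Loss of L3mbtl3 was not accompanied by a detectable change in the number of peaks at these loci. The 10 loci together held 14, 14, 6 and 22 peaks in KO libraries 1 to 4, and 12, 17 and 9 in wild-type libraries 1 to 3. The KO values lay on both sides of the wild-type values. The means were 14 ± 6.53 in KO and 12.7 ± 4.04 in wild-type libraries (SD, n = 4 and 3), a difference of 1.33 peaks. This difference turned to −1.33 without KO library 4 and to −0.50 without wild-type library 3, and it was 4 without KO library 3 and 3.5 without wild-type library 2. Set against the length of each list, the loci held 14.2, 19.7, 17.8 and 12.7 of every 10000 peaks in KO libraries, and 16.1, 14.9 and 13.9 in wild-type libraries. The 4 KO libraries had the lowest and the highest of these values.

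**Figure D1:**
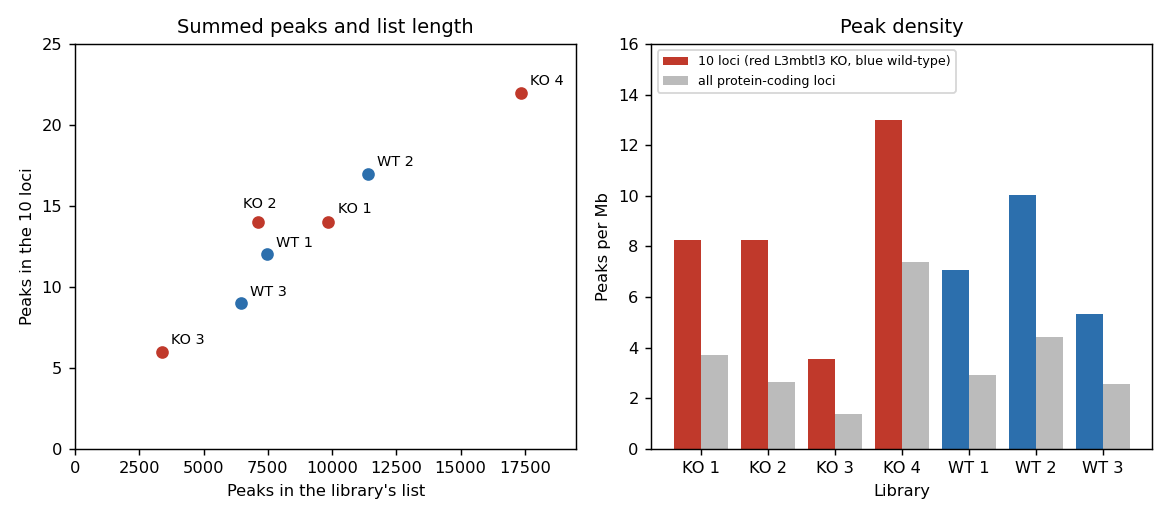
Left, peaks in the 10 loci (y axis) against the number of peaks in the library's list (x axis), 1 point per library, red for L3mbtl3 KO and blue for wild-type; KO library 3 is lowest at 6 and KO library 4 highest at 22. Right, peaks per Mb in the 10 loci (coloured bars) and in all protein-coding loci (grey bars) for each library; the coloured bar is the higher of the pair in all 7 libraries.

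No gene passed the test of the number of peaks in its locus. The mean was higher in KO libraries for 5 of the 10 genes and lower for 5, and 58.6% of the 15153 loci with a peak were higher in KO libraries. With a two-sided exact permutation test over the 35 ways of splitting the libraries and Benjamini-Hochberg adjustment over the 15153 loci, 0 of the 10 passed, as did 0% of all loci, and every adjusted p was 1. At an unadjusted p under 0.05, the count was 0 of the 10 against 0.33% of all loci. The smallest p of this design is 0.0286, and with so few loci reaching it, it did not pass the adjustment. No member had every KO library above every wild-type library, a pattern of 0.132% of loci, or every KO library below, a pattern of 0.211%.

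**Figure D2:**
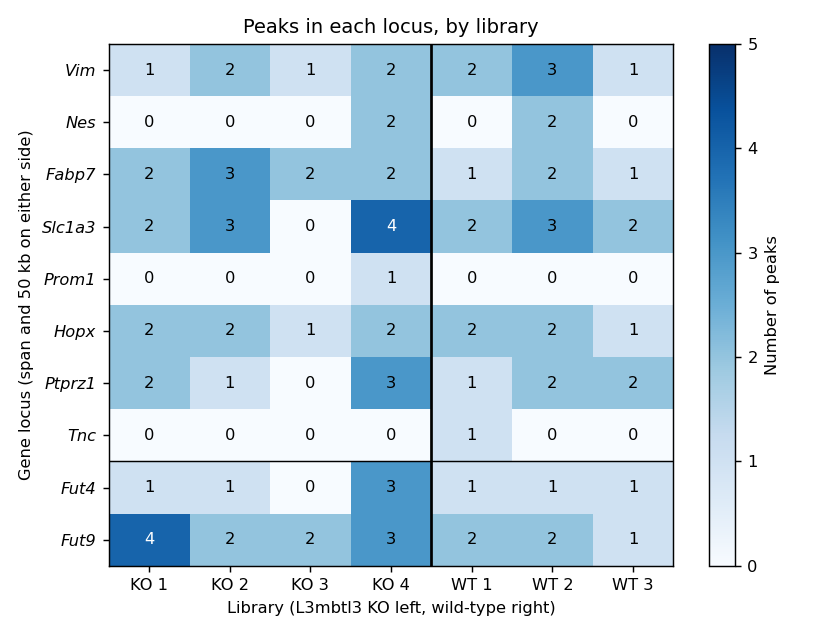
Number of peaks in each locus (rows; gene span and 50 kb on either side) in each library (columns), L3mbtl3 KO left of the line and wild-type right of it. Vim, Fabp7, Hopx and Fut9 have a peak in all 7 libraries, while Prom1 and Tnc have 1 peak each over all libraries.

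At the filament genes, Vim was open at the same place in all 7 libraries. Vim had 1, 2, 1 and 2 peaks in KO libraries 1 to 4, and 2, 3 and 1 in wild-type libraries 1 to 3, a difference of −0.50 (exact permutation p = 0.657, adjusted p = 1). The groups overlapped. The difference was 0 without wild-type library 2, −1 without wild-type library 3 and 0 in the gene span only. The recurrent region lay inside the gene, 1757 bp downstream of its listed start (chromosome 2, 13576068 to 13576410), and the 7 peaks shared the 60 bp from 13576242 to 13576301. The fold enrichment that the authors' peak caller gave was 4.91, 5.63, 4.22 and 5.78 in KO libraries, and 5.66, 4.87 and 5.24 in wild-type libraries. Within its own list, the peak stood between the 9.17th percentile of −log10 q, in KO library 3, and the 90.7th, in KO library 4. No library had a peak at the listed start of Vim. A second region 29855 bp upstream of Vim (chromosome 2, 13544279 to 13544456) had peaks in 2 of 4 KO and 2 of 3 wild-type libraries. It lay inside Trdmt1, a tRNA methyltransferase gene, 208 bp from that gene's listed start.

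Nes, which encodes the filament protein nestin, had 0, 0, 0 and 2 peaks in KO libraries 1 to 4, and 0, 2 and 0 in wild-type libraries 1 to 3 (exact permutation p = 1, adjusted p = 1). The peaks came from the libraries with the longest list of each genotype. Both libraries called the same regions, 1 inside the gene 3220 bp downstream of its start (chromosome 3, 87974313 to 87974578) and 1 that ended 9985 bp upstream (87960834 to 87961108). Nes is known for a neural enhancer in its second intron. Whether the inner region falls there was not tested, since no transcript models were used.

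Fabp7, which encodes the brain fatty acid binding protein of radial glia, had the lowest p of the 10 genes. Its locus held 2, 3, 2 and 2 peaks in KO libraries 1 to 4, and 1, 2 and 1 in wild-type libraries 1 to 3, a difference of 0.92 (exact permutation p = 0.114, adjusted p = 1). The groups met at 2 peaks. The difference was −0.333 in the gene span only and −0.25 with lists cut to equal length. Leaving out 1 library in turn, it stayed above 0, from 0.667 without KO library 2 to 1.25 without wild-type library 2. The region called in all 7 libraries lay 33975 bp beyond the 3′ end of the gene (chromosome 10, 57822425 to 57822812), and its peaks shared only 16 bp. Its fold was 4.74, 5.99, 3.63 and 5.09 in KO libraries, and 5.15, 5.34 and 4.95 in wild-type libraries. A further region 40263 bp beyond the gene (57828713 to 57828915) was called in KO libraries 3 and 4 only, and a region that ended 320 bp upstream of the start (57784157 to 57784603) in KO libraries 1 and 2 only. Of the 9 genes with a listed start, which leaves out Fut9, Fabp7 alone had recurrent regions within 1 kb of its own. These were the upstream region above and 1 at the start itself.

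The region at the Fabp7 start (chromosome 10, 57784747 to 57784960) was called in KO library 2 and wild-type library 2. The KO peak ended at 57784902, short of the start at 57784923, and only the wild-type peak crossed it. The 250 bases before the start are shown because both peaks lie on them. They are RefSeq sequence of GRCm38.p6 at chr10:57784673-57784922, plus strand, with the 111 bases common to both peaks in capitals.
Fabp7: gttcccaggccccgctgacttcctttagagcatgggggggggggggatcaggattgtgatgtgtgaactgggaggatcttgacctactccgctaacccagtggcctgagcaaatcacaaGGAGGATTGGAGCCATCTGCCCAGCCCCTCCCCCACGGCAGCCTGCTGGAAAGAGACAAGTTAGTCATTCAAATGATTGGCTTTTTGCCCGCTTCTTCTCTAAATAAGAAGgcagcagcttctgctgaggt
The capitals hold 2 matches to CCAAT and 2 to the E-box pattern CANNTG, on either strand. Of the 32851 listed windows of this length, 33.8% hold CCAAT and 66.2% hold CANNTG. No match was found in the 250 bases to the octamer ATGCAAAT (in 1.60% of windows), to TTGGCA of nuclear factor I (12.3%), to ACAATG of SOX factors (10.7%) or to GTGGGAA of RBPJ (5.42%). A match describes letters and not a bound factor.

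Slc1a3, the glutamate transporter GLAST, had 3 recurrent regions, and KO libraries 2 and 4 alone called all of them. The locus held 2, 3, 0 and 4 peaks in KO libraries 1 to 4, and 2, 3 and 2 in wild-type libraries 1 to 3, a difference of −0.083 (exact permutation p = 1, adjusted p = 1). The KO libraries had both the lowest and the highest value. A region 6216 bp upstream (chromosome 15, 8717023 to 8717311) was called in 3 of 4 KO and 2 of 3 wild-type libraries and lies in the long noncoding RNA gene Gm31340. A region inside the gene, 50866 bp downstream of the start (8659661 to 8659941), was called in 3 of 4 and 1 of 3 libraries. A region 4410 bp beyond the 3′ end (8629370 to 8629714) was called in 2 of 4 and 2 of 3. The start itself carried a peak in wild-type library 2 only, at the 0.926th percentile of −log10 q of that list. No 2 of these 3 recurrent regions had the same callers.

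Hopx, a homeodomain protein gene that marks outer radial glia in human cortex, had 2, 2, 1 and 2 peaks in KO libraries 1 to 4, and 2, 2 and 1 in wild-type libraries 1 to 3, a difference of 0.083 (exact permutation p = 1, adjusted p = 1). The region called in all 7 libraries lay 7279 bp upstream of the gene (chromosome 5, 77122402 to 77123225). At 824 bp it was the longest of the 31 regions found at the 10 loci, against a median of 400 bp for all regions called in 7 libraries. Its fold was 4.69, 5.11, 4.03 and 5.47 in KO libraries, and 4.20, 4.34 and 5.23 in wild-type libraries. A region inside Hopx (77090606 to 77090882) was called in 2 of 4 KO and 2 of 3 wild-type libraries.

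The upstream region of Hopx covers the listed start of Gm15831 at 77122452, a long noncoding RNA gene that runs from there toward Hopx. Only the peak of KO library 2 reached that start, and the other 6 began at 77122483 or above. The 250 bases before that start are shown because all 7 peaks reach them (chr5:77122453-77122702 of GRCm38.p6, minus strand, from RefSeq). Capitals mark the 106 bases that lie under all 7 peaks.
Gm15831: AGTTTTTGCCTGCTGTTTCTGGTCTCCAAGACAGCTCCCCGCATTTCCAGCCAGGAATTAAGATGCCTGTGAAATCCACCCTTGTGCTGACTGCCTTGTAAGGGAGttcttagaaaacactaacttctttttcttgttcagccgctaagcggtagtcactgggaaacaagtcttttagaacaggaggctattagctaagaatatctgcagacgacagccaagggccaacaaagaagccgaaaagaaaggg
The window holds 46.4% G and C, against a median of 52.4% in all listed windows. It has no match to any motif searched: those named for Fabp7, the TATA box TATAAA (in 12.4% of windows), the AP-1 pattern TGANTCA (6.75%), the GC box GGGCGG (32.7%) and the half-site TGACGT (6.47%).

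Ptprz1, a receptor tyrosine phosphatase gene of radial glia and glial precursors, had 2, 1, 0 and 3 peaks in KO libraries 1 to 4, and 1, 2 and 2 in wild-type libraries 1 to 3, a difference of −0.17 (exact permutation p = 1, adjusted p = 1). The wild-type values lay within the KO range. A region inside the gene, 47479 bp from the start (chromosome 6, 22922981 to 22923302), was called in 3 of 4 KO and 2 of 3 wild-type libraries. Upstream of the gene span, a region 41430 bp away (22833692 to 22833885) had peaks in 0 of 4 KO and 2 of 3 wild-type libraries, its neighbour 40375 bp away (22834743 to 22834940) in 2 of 4 and 1 of 3. Every wild-type library thus called 1 of these neighbours and none called both.

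Prom1 and Tnc had a single peak each over the 7 libraries. Prom1, which encodes the stem cell surface protein CD133, had 0, 0, 0 and 1 peaks in KO libraries 1 to 4 and none in wild-type libraries, although its span is 108427 bp long. That peak lay 49510 bp upstream of the gene, near the edge of the window. Tnc, which encodes the matrix protein tenascin-C, had none in KO libraries and 1, 0 and 0 in wild-type libraries 1 to 3 (exact permutation p = 0.429, adjusted p = 1). A single peak is shared by many genes as a pattern. The counts of Prom1 in the 7 libraries were those of 2033 genes in all, and the counts of Tnc those of 196.

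The Tnc peak covers the start of the gene and stood at the 12.4th percentile of −log10 q of its list. The 250 bases before the most upstream listed start are shown as the only place where Tnc was called (chr4:64047016-64047265 of GRCm38.p6, minus strand, from RefSeq). Capitals mark the 215 bases under the peak of wild-type library 1.
Tnc: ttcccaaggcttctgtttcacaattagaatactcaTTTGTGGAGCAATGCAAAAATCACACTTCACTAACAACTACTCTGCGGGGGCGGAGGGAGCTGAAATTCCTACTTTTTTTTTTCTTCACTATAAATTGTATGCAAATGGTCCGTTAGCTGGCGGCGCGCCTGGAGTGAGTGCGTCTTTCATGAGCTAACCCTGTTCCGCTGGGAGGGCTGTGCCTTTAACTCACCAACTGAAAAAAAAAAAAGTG
The capitals hold 1 match to the octamer ATGCAAAT, found in 1.60% of listed windows, 1 to TATAAA and 1 to GGGCGG. They also hold 2 matches to CANNTG, 1 of which overlaps the octamer.

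Of the CD15 genes, Fut9 was open inside the gene in every library. Fut9 had 4, 2, 2 and 3 peaks in KO libraries 1 to 4, and 2, 2 and 1 in wild-type libraries 1 to 3, a difference of 1.08 (exact permutation p = 0.286, adjusted p = 1). The groups overlapped at 2 peaks. The difference was 0.667 without KO library 1, 0.417 with equal lists and 0.333 at −log10 q of at least 3. The region at chromosome 4, 25627338 to 25627702, was called in all 7 libraries, and its peaks shared 111 bp. Its fold was 6.46, 6.08, 5.84 and 7.49 in KO libraries, and 5.88, 7.18 and 5.84 in wild-type libraries. Its −log10 q stood between the 88.7th and the 98.5th percentile of each list, so it was among the stronger peaks in all 7. Averaged over its callers, its percentile was above that of 88.8% of the regions called in 7 libraries. The same share was 31.3% for the Vim region, 22.1% for the Fabp7 region and 5.63% for the Hopx region.

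A second region inside Fut9 (25768699 to 25769006) was called in 4 of 4 KO and 2 of 3 wild-type libraries, missing from wild-type library 3, and stood between the 56.9th and 88.9th percentile. Another, across the upper end of the gene span (25799764 to 25800175), was called in KO libraries 1 and 4 only. The promoter table used here has no entry for Fut9, so its strand and starts are not given.

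Fut4 differed in where its peaks lay. The locus had 1, 1, 0 and 3 peaks in KO libraries 1 to 4, and 1, 1 and 1 in wild-type libraries 1 to 3, a difference of 0.25 (exact permutation p = 1, adjusted p = 1). It was −0.333 without KO library 4 and −0.218 per 10000 peaks. The only recurrent region (chromosome 9, 14784525 to 14784735) was called in 3 of 4 KO and 3 of 3 wild-type libraries and lay 32403 bp upstream of Fut4. It covers the starts of Ankrd49 and of Mre11a, a DNA repair gene, which are transcribed away from each other. Its fold was 6.23, 7.59 and 6.69 in KO libraries 1, 2 and 4, and 7.39, 5.18 and 5.59 in wild-type libraries. Inside Fut4 itself, KO library 4 alone had a peak, 1092 bp downstream of the start and at the 5.54th percentile of its list. In the other libraries no peak lay inside the Fut4 span. That span is 3664 bp long and the Fut9 span 190671 bp, so peaks inside these genes are not counted over a like length. Per 100 kb of locus and library, Fut4 held 1.10 peaks and Fut9 0.786.

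The 80 bases between the starts of Ankrd49 and Mre11a are shown since all 6 peaks cover them entirely (chr9:14784574-14784653 of GRCm38.p6, plus strand, from RefSeq).
Mre11a: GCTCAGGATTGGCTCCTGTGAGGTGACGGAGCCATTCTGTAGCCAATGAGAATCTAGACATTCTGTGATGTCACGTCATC
They hold 2 matches to CCAAT, which 15.3% of listed 80-base windows hold, and 1 to TGACGT of cyclic AMP response elements, which 3.56% hold, on either strand.

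**Figure D3:**
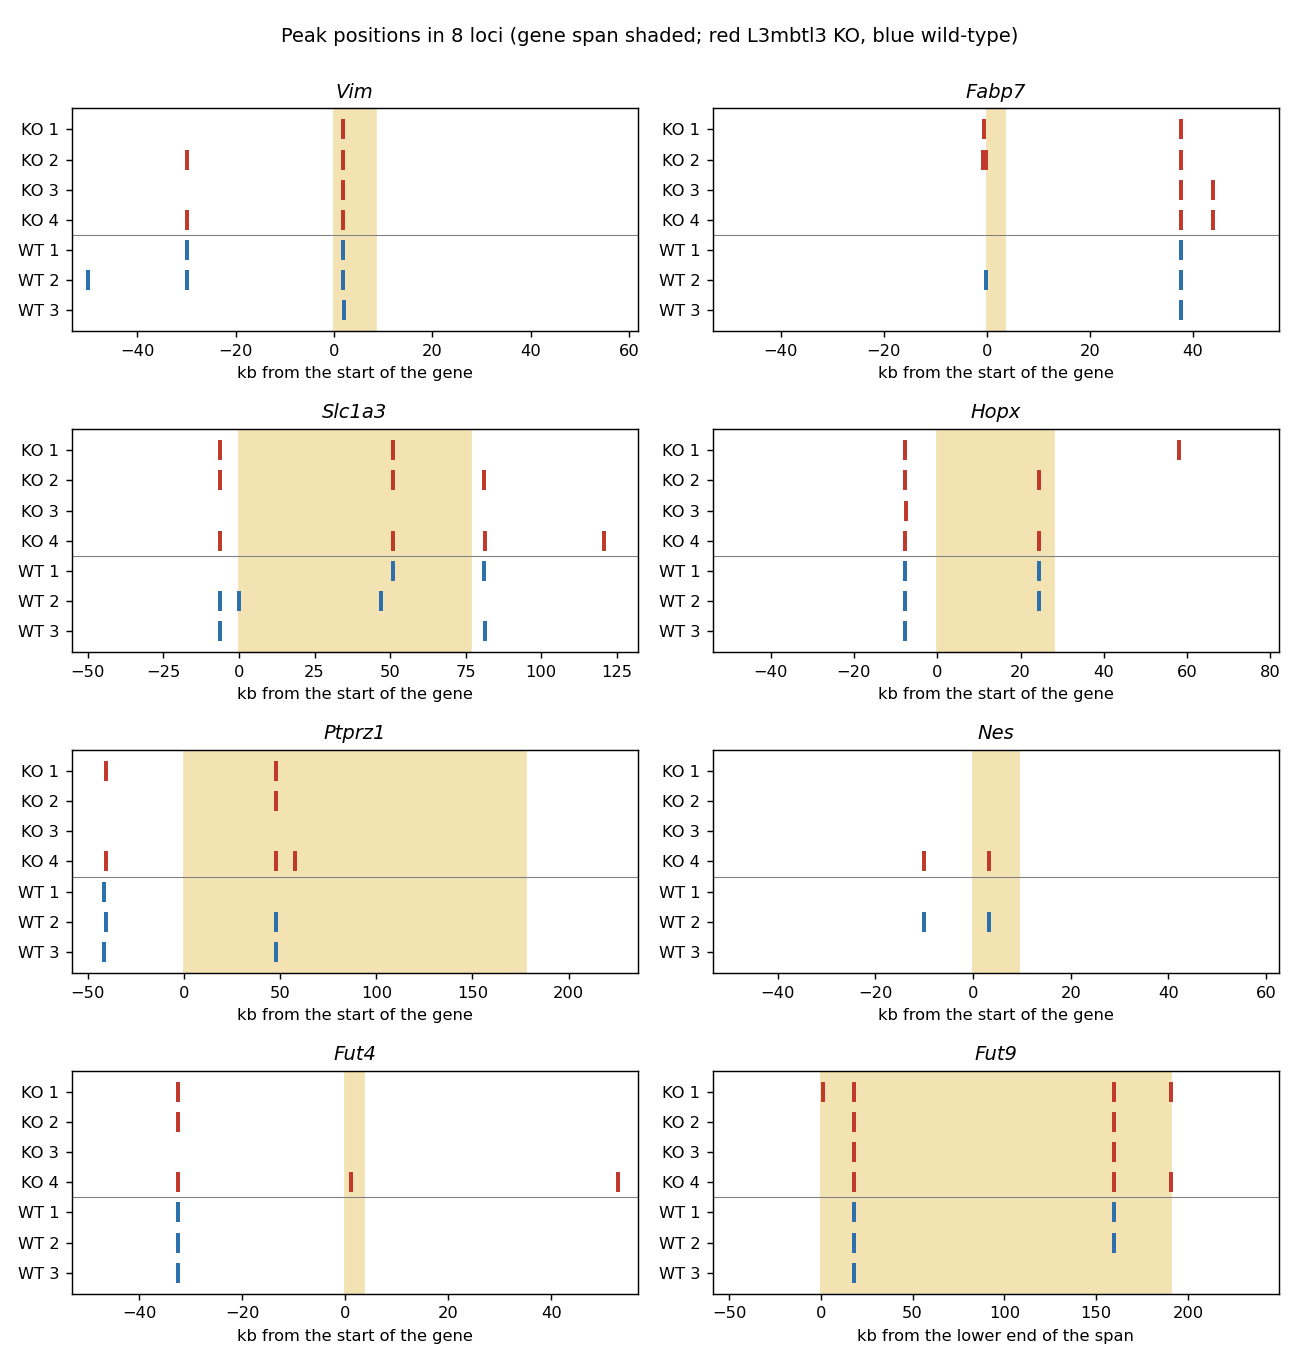
Peak positions in the 8 loci with a recurrent region, with libraries as rows (L3mbtl3 KO above the line in red, wild-type below it in blue) and distance in kb on the x axis, counted from the start of the gene, or for Fut9 from the lower end of its span. Shading marks the gene span, and marks line up over all 7 rows inside Vim and Fut9, beyond Fabp7 and upstream of Hopx.

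The peaks of the 10 loci, 94 in all, merged into 31 regions, of which 20 were called in at least 2 libraries. This is a larger share than the 51.6% of all 25623 regions, though no test was made. Of the 31, 4 were called in all 7 libraries, against 5.06% of all regions. Those 4 became 0 when a call required peaks over 50% or more of a region, 1 at −log10 q of at least 3, 0 at −log10 q of at least 5 and 1 with equal lists. The 20 recurrent regions held 83 of the 94 peaks and fell in 8 loci, all but Prom1 and Tnc. Inside the gene span lay 9 of them and outside it 11, and 3 lay within 1 kb of the listed start of another gene. In each of the 20, all peaks shared at least 1 base.

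Calling of single regions did not separate the genotypes. Of the 31 regions, 0 were called in every library of 1 genotype and none of the other, a pattern of 0.242% of all regions. Regions called in at least 2 KO and no wild-type libraries numbered 3, of which 2 were at Fabp7 and 1 at Fut9, against 5.88% of all regions. Regions called in at least 2 wild-type and no KO libraries numbered 1, at Ptprz1, against 1.51% of all regions. No region at these loci had an unadjusted Fisher's exact p under 0.05, and with adjustment over all regions each had a p of 1. The Fisher test of 4 against 3 libraries cannot go below 0.0286, a value that only the pattern of 0.242% of all regions reached. No region could therefore pass the adjustment, and the adjusted values do not show that calling was alike in the genotypes.

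**Figure D4:**
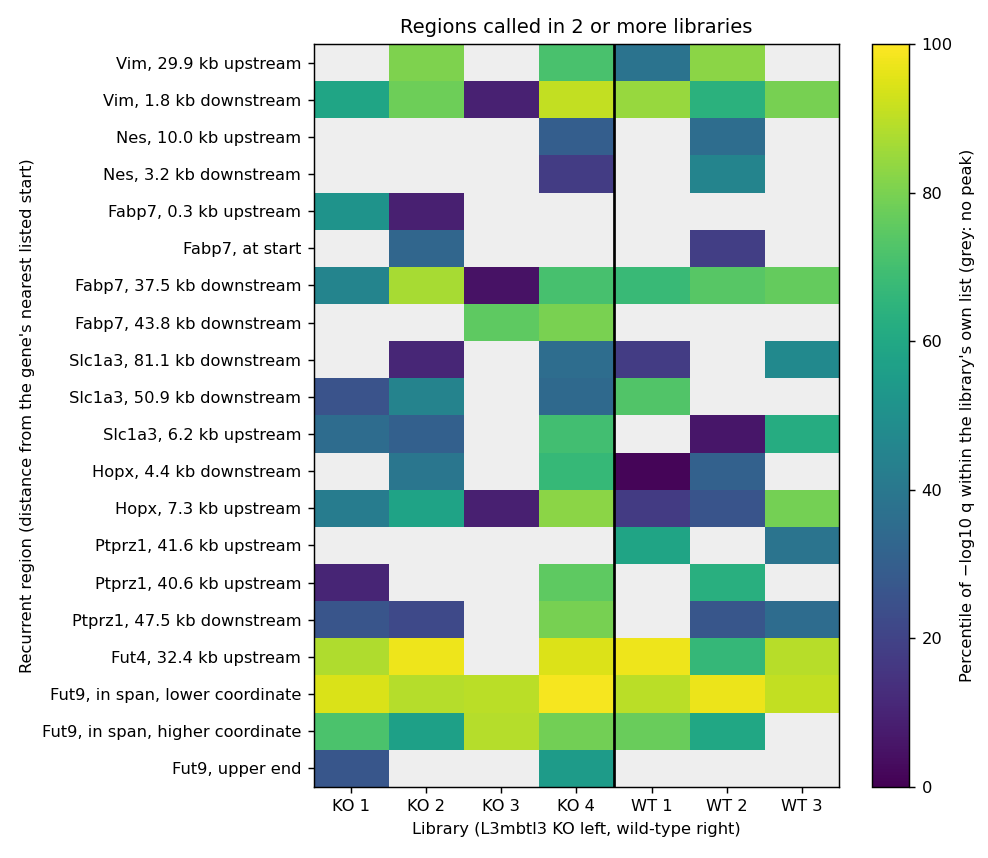
Rows are the 20 regions called in 2 or more libraries, named by distance from the gene's nearest listed start, or for Fut9 by place in its span. Columns are libraries, L3mbtl3 KO left of the line and wild-type right of it. Colour gives the percentile of −log10 q of the peak within its own list, with grey for no peak. The first Fut9 region is at a high percentile in all 7 libraries, and the first Ptprz1 region is grey in all 4 KO libraries.

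None of the other genes of the same pathways passed the test, but 0% of all loci did, so this does not set these genes apart. Of 18 further radial glia genes, 13 had a peak in any library, 6 were higher and 7 lower in KO by mean, and 1, the N-cadherin gene Cdh2, had a peak in all 7. Over all loci, 69.2% had a peak in any library and 6.9% in all 7, and 58.6% of those with a peak were higher in KO libraries, which also applies to the lists that follow. Cdh2 had 4, 2, 1 and 7 peaks in KO libraries 1 to 4, and 3, 4 and 3 in wild-type libraries. Of 15 paralogues and partners of the members, 13 had a peak, 8 were higher and 5 lower in KO by mean, and 4 had a peak in all 7 libraries, led by the adhesion gene Nrcam with 5, 5, 3 and 12 peaks in KO and 2, 6 and 5 in wild-type libraries. Tnr, the tenascin-R gene, had 3, 4, 1 and 7 peaks in KO and 1, 3 and 4 in wild-type libraries, where Tnc had the single peak given above. The Tnr span is 408001 bp and the Tnc span 87231 bp, so these counts cover unlike lengths. Cdh2 spans 220370 bp and Nrcam 276409 bp, against a median of 17169 bp for all genes. The median difference was 0 in the first list and 0.17 in the second, against 0.17 over the 15153 loci with a peak and 0 over the 10 members.

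Among 8 other fucosyltransferase genes, 6 had a peak, 5 were higher and 1 lower in KO by mean, and none had a peak in all 7 libraries, with the shares over all loci at 69.2%, 58.6% and 6.9%. Their summed peaks were 0 to 14 in KO and 1 to 4 in wild-type libraries, with the 14 in KO library 4. Fut10 had 1, 1, 0 and 4 peaks in KO libraries and 1, 0 and 0 in wild-type libraries. Of 13 genes that make the lactosamine chain or the fucose donor, all had a peak in some library, 7 were higher and 5 lower in KO by mean, and only the galactosyltransferase gene B4galt6 had one in all 7, with 2, 1, 1 and 1 in KO and 1, 2 and 1 in wild-type libraries. The shares over all loci were 69.2% in any library and 6.9% in all 7. The median differences were 0.125 and 0.25.

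Loci of markers of other cells also held peaks, which do not show expression. The 8 neuron loci held 3 to 13 peaks in KO and 3 to 9 in wild-type libraries, with 1 at Tbr1 in each of the 7. The 5 intermediate progenitor loci held 1 to 6 and 2 to 3. Of these, Neurog2 had 2, 0, 1 and 4 peaks in KO and 3, 2 and 1 in wild-type libraries, Insm1 had peaks in 4 libraries and Btg2 in 1, and Eomes and Gadd45g were at 0 in all. The 6 endothelial loci held 0 to 7 and 0 to 1, where the 7 belonged to KO library 4. The 6 microglia and blood loci held 0 to 5 and 2 to 4. P2ry12 had 2, 1, 0 and 1 peaks in KO and 0, 1 and 0 in wild-type libraries, Ptprc had 1, 0, 0 and 2 in KO and 2, 0 and 0 in wild-type libraries, and only Csf1r was at 0 in all. The 5 meningeal and fibroblast loci held 1 to 2 and 1 to 2, with Dcn called in every library, Col1a2 in 2 wild-type libraries, and Col1a1, Lum and Foxc1 at 0. The part of such cells in the results at the 10 loci was not tested.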

How the data were processed

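The authors deposited 1 broadPeak list per library. Per the submitters' processing notes, the build was GRCm38, and MACS2, Bowtie2 2.3.5.1, deepTools 3.3.0, SAMtools 1.9, CASAVA 1.9 and FastQC 0.11.8 were used. No source used here gives their settings, or says whether reads were moved to the cut site. The deposited lists give each peak's fold enrichment (a ratio), its −log10 p and −log10 q, whose smallest value was 1.30 to 1.32 in the 7 lists, and a whole-number score by the authors that was not used. Peaks were ranked by −log10 q within their own list. For regions called in all 7 libraries these percentiles were averaged over the same 7 lists, and as the lists differ in length, percentiles show no change between libraries. The lists hold no counts, so no counting interval was possible.

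Gene spans came from RefSeq GRCm38.p6, and starts and sequences from its promoter table, which lists 9 of the 10 genes. Exons, introns and the sequence under other peaks were not used here. Coordinates count from 1. Peaks overlapping a span with 50 kb on either side were counted for every protein-coding gene on chromosomes 1 to 19, X and Y, and their means compared by exact permutation (two-sided), adjusted by the Benjamini-Hochberg method over all genes with a peak. Peaks sharing at least 1 bp were merged into regions, compared with Fisher's exact test. A window can hold neighbouring genes, and a peak then counts for each.

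All members were named, and from every other list up to 3 genes with peaks in the most libraries could be named. Markers of other cells with no peak in any library were named beyond this rule, after their values were seen. Genes beside recurrent regions were named by position. Members and lists were chosen with earlier results of these data known. Window, threshold, list length, scaling, merging, overlap, single libraries and pairing by number were varied. Scripts were tested on simulated lists and run with Python 3.11.15, NumPy 2.4.6, pandas 2.3.3 and SciPy 1.17.1.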

Additional observations from a re-analysis of the deposited data

Results flagged for a closer look

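In 4 of 23 groups of 4 KO libraries examined, 1 library stood apart from the other 3, which had equal counts. For continuous values, chance would mark about 1 in 20 groups in this way. Small whole numbers tie easily, and 3 equal counts beside 1 other are always marked, so that rate does not apply here. At Nes, KO library 4 had 2 peaks in the locus, against 0 in the other KO libraries. At Fabp7, KO library 2 had 3 peaks, against 2 in the others. At Prom1, KO library 4 had 1 peak, against 0. At Hopx, KO library 3 had 1 peak, against 2. The libraries with the longest list (KO library 4) and the shortest list (KO library 3) account for 3 of these 4. The part of list length was not tested.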

How the results depend on the processing

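No member passed the test of locus peaks, and no region the test of calling, under any alternative run. The smallest unadjusted exact permutation p of a member over the alternatives was 0.0667, at Fabp7 without wild-type library 2. With so few libraries p has a floor in every run, so these runs do not show that the result is stable. The 20 recurrent regions became 9 in the gene span only, 8 at −log10 q of at least 3, 2 at −log10 q of at least 5 and 7 with equal lists, each of which keeps fewer peaks. The summed difference took both signs, at −0.333 with equal lists and −1.33 with the replicate block. Pairing by replicate number gave correlations of −0.0258, 0.0614 and 0.0604 between same-numbered libraries. The other pairs of libraries ranged from −0.124 to 0.0951, so these values do not show whether the numbers pair libraries. The block, whose smallest p is 0.25, could not pass the threshold and changed no call. Of 150 alternatives for single loci, 99 kept the direction, 34 gave 0 and 17 reversed it, and the cause was not tested. In the gene span only, the difference, KO minus wild-type, was −0.333 at Fabp7, −0.167 at Hopx and 0.333 at Ptprz1. With 10 kb it was −0.167 at Hopx and 0.333 at Ptprz1. At −log10 q of at least 3 it was 0.167 at Ptprz1 and −0.25 at Fut4, and at 5 it was 0.25 at Vim. Fabp7 gave −0.25 with equal lists. Fut4 gave −0.218 per 10000 peaks and −0.333 with the replicate block. Leaving out 1 library in turn, the difference ranged from −0.667 to 0.667 at Slc1a3 (above 0 without KO library 3 or wild-type library 2), −0.667 to 0.333 at Ptprz1 (above 0 without KO library 3), −0.333 to 0.667 at Fut4 (below 0 without KO library 4), −0.667 to 0.5 at Nes (above 0 without wild-type library 2), −0.25 to 0.333 at Hopx (below 0 without wild-type library 3), −1 to 0 at Vim and 0.667 to 1.33 at Fut9, and the summed difference from −1.33 to 4. At Fabp7 the same range was 0.667 to 1.25. Without wild-type library 2, 1 region, at Ptprz1, was called in both remaining wild-type libraries and in 0 KO libraries. The unknown read depth limits every absent call.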

Other observations

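Of the 11 regions at the 10 loci that were called in 1 library, 5 came from KO library 4, which had the longest list.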
